A study of Mus musculus with 6 samples.

Results

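The genes described here encode the AFF scaffolds (Aff1, Aff3, Aff4), the ELL elongation factors (Ell, Ell2, Ell3), the ELL-associated factors (Eaf1, Eaf2) and the Mediator subunit Med26. They were taken by symbol from a list of 9 genes, and all 9 were found among the 55487 genes of the deposited table. Their transcripts were read by RNA-seq in 6 libraries from mouse bone marrow, made from cells chosen for the surface receptor Kit. In 3 libraries (WT) the cells had received a lentivirus that overexpresses wild type MLLT3, and in 3 (DM) a lentivirus that overexpresses MLLT3 with the substitutions K63E and K67E. The cells of all 6 stood 8 days in methylcellulose that held 10 ng/mL Flt3L, further cytokines at 20 ng/mL each (among them EPO, SCF, GM-CSF, IL-3, IL-6 and IL-11), gentamycin and 200 nM 4-hydroxytamoxifen, which was added to delete the endogenous Mllt3 gene in both groups. RNA was total RNA, prepared with depletion of abundant transcripts (AnyDeplete). No group analysed here was left without 4-hydroxytamoxifen or without a vector. The vector's promoter, the driver of the inducible deletion, and the strain and age of the mice are not given in the sources used here. The labels put all libraries in batch 1 and do not say whether replicates came from separate animals or cultures, so the p-values measure only the spread between these libraries.

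The super elongation complex releases RNA polymerase II from its pause near promoters and speeds its passage through genes. AFF proteins form its backbone and hold P-TEFb (the kinase CDK9 with cyclin T), an ELL factor, and MLLT3 or its paralog MLLT1, whose YEATS domains bind acylated histones. ELL factors suppress transient stalling of the polymerase, EAF proteins bind and stimulate them, and MED26 is the Mediator subunit that recruits the complex. Several of these genes, among them AFF1, AFF4, ELL, MLLT1 and MLLT3, are partners of MLL in fusion genes of human acute leukaemia. The comparison of DM with WT asks how transcript levels of these partners differ when the supplied MLLT3 carries the 2 substitutions.

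Ell2, Eaf1 and Ell were the members higher in DM past the test, and their promoters are shown to let their base composition and motifs be seen beside their values. Promoters are 300-base windows around RefSeq transcription starts on GRCm38.p6, the build that mm10 names, given 5′ to 3′ on the strand of the gene. Capitals mark matches, on both strands and with overlaps counted, to 7 motifs whose letters are given with their counts after the sequences. The first promoter of Eaf2, the paralog of Eaf1 with far lower levels, is given beside them, and its further windows are described below. The windows lie at chr13:75707234-75707533 (Ell2, plus strand), chr8:70539425-70539724 (Ell, plus strand), chr14:31494829-31495128 (Eaf1, plus strand) and chr16:36874777-36875076 (Eaf2, minus strand).
Ell2: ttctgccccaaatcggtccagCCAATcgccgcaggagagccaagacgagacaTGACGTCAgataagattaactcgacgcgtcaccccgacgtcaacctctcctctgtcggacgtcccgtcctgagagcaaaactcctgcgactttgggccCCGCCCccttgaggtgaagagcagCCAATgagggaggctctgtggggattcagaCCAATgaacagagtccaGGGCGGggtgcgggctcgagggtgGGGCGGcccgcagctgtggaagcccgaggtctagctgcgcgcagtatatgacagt
Ell: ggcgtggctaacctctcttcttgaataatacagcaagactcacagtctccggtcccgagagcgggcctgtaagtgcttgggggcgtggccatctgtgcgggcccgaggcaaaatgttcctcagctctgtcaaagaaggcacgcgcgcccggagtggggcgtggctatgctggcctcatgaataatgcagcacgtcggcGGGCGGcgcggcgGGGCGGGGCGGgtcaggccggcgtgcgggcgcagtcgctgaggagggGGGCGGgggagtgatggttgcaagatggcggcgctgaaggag
Eaf1: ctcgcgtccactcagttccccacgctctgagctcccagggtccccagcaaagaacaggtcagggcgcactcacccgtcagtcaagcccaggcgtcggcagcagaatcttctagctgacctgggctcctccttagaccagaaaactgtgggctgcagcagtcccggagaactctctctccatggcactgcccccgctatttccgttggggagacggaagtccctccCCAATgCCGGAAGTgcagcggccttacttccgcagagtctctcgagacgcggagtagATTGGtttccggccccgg
Eaf2: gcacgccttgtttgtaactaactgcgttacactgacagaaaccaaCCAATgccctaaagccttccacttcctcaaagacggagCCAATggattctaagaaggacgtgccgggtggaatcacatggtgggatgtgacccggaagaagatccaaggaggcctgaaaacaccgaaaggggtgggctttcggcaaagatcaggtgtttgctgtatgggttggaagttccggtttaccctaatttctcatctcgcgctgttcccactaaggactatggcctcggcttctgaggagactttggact

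The 3 called genes did not share 1 arrangement of these motifs. The Ell2 window held 3 GC boxes, 3 CCAAT boxes and 1 cAMP response element. The Ell window held 4 GC boxes and none of the other motifs, and the Eaf1 window held 2 CCAAT boxes and 1 ETS motif but no GC box. The GC content was 61.3% for Ell2, 66.3% for Ell and 62% for Eaf1. It was 51% for the first Eaf2 window, and the median over all 32851 windows of the table was 52.7%. CpG dinucleotides numbered 23, 29 and 19 in the Ell2, Ell and Eaf1 windows and 12 in the first of Eaf2. The median window has 7. The second Eaf2 window had 70.7% GC and 30 CpG, and the third 41% and 3. Members not called reached higher values, with 83.3% and 54 CpG for the scarce Aff3 and 79% and 44 for Aff4. GC content and CpG number thus did not separate called from uncalled members. All 9 genes had a window, 12 in all, since Aff1 has 2 and Eaf2 has 3. A GC box (GGGCGG) was in 8 of these 12 and in 35.7% of all windows. A CCAAT box, spelled by its name, was in 6 of 12 and in 37.4% of all windows. The cAMP response element (TGACGTCA) was in 1 of 12 (Ell2) and in 1.79% of all windows. The ETS motif (CCGGAAGT) was in 1 of 12 (Eaf1) and in 3.89% of all. The E-box (CACGTG) was in 1 of 12 (Aff4) and in 7.15% of all. The TATA box (TATAAA) was in 1 of 12 (the third window of Eaf2) and in 13.6% of all. The AP-1 motif (TGANTCA) was in 0 of 12 and in 7.81% of all. A match is a run of letters and not evidence that a factor binds.

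The deposited values are on a log2 scale, made by a regularized log transformation (rlog), normalized for library size and pulled toward each gene's mean where values are low. They hold no counts, so the depth is unknown and changes of low genes are understated. To compare levels between genes, log2 of each gene's exonic length in kilobases (kb) was subtracted from its rlog value. On that per-kb scale the genes fell into an abundant and a scarce set. In WT, Eaf1 led at 9.76 ± 0.128 (SD, n = 3), followed by Aff1 at 9.51 ± 0.153, Ell at 8.92 ± 0.102 and Aff4 at 8.91 ± 0.0458. Ell2 (7.72 ± 0.154) and Med26 (7.45 ± 0.0772) came next. Aff3 (3.44 ± 0.164), Eaf2 (2.22 ± 0.0906) and Ell3 (1.01 ± 0.0446) were far below. The same order held in DM. Neighbours in it overlapped between Eaf1 and Aff1 in WT and between Ell and Aff4 in both groups, and the other neighbours did not overlap. Against the per-kb levels of the tested genes, Eaf1 stood at percentile 91.2, Aff1 at 88.8, Ell at 84.2 and Aff4 at 83.6, while Aff3 stood at 21.6, Eaf2 at 12.6 and Ell3 at 3.1. The plot of levels per length shows this gap.

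**Figure D1:**
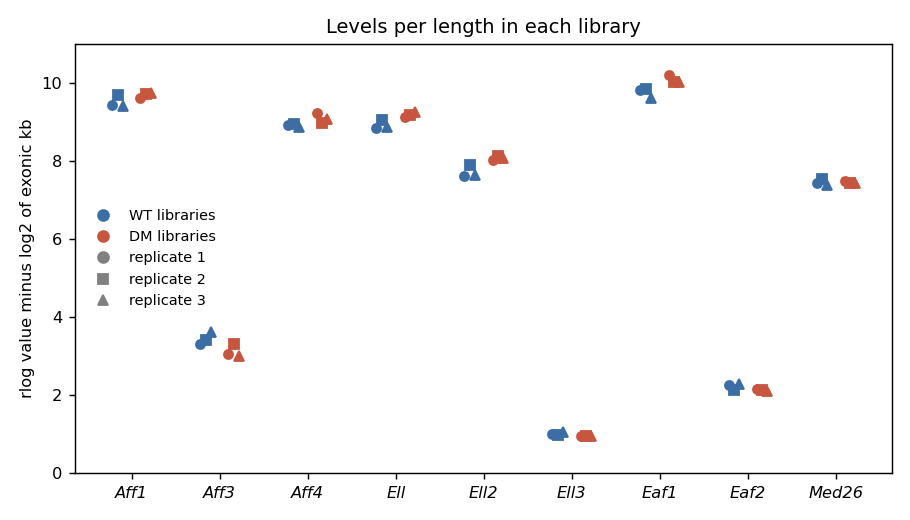
Level of each gene in each library, as the rlog value minus log2 of its exonic length in kb (y axis, log2 scale), with blue for WT, red for DM and circles, squares and triangles for replicates 1 to 3. Aff1, Aff4, Ell, Ell2, Eaf1 and Med26 lie above 7, and Aff3, Ell3 and Eaf2 below 4.

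Among the 9 genes, each family therefore had 1 or 2 that carried nearly all of its transcripts. Taken back to the linear scale per kb, Eaf1 made up 99.5% ± 0.0747 (SD, n = 3) of the EAF family in WT, against 99.6% ± 0.025 in DM. Of the ELL family, Ell held 69.5% ± 0.754 in WT, against 68.1% ± 0.83 in DM, Ell2 30.2% ± 0.783 and 31.7% ± 0.829, and Ell3 0.289% ± 0.0301 and 0.226% ± 0.0088. Of these AFF genes, Aff1 held 59.7% ± 1.95 in WT, against 59.9% ± 2.99 in DM, Aff4 39.4% ± 1.89 and 39.4% ± 3.03, and Aff3 0.895% ± 0.142 and 0.632% ± 0.0871. Aff2, an AFF gene that is not a member, was left out of these shares. It stood above Aff3, at 5.24 per kb in WT and 5.31 in DM. Shares of the scarce genes are the least certain, because rlog values hold low genes near a floor. The value of Ell3 is also uncertain because Serinc4 overlaps 65.6% of its exonic bases on the same strand.

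Differences between groups were read from limma fits over the 18766 genes with a mean rlog value of at least 3, with Benjamini-Hochberg adjustment over all of them. Of the 9 genes 8 passed that filter, and Ell3, with a mean under 3 in both groups, did not. At an adjusted p under 0.05, 3 of the 8 were called, all 3 higher in DM (37.5%), where 13.9% of all tested genes were called, 9.2% higher and 4.71% lower. For 4 of the 8 (Aff4, Ell, Ell2 and Eaf1), or 50%, every DM library lay above every WT library, where groups did not overlap for 35.8% of all tested genes. The median change was 0.18 over the 8 genes and 0.01 over all tested genes. After quantile normalization across libraries 1 of the 8 was called (Ell2) and their median change was 0.05. That normalization also turned 1727 higher and 884 lower calls among all genes into 1362 and 1292. Leaving out WT replicate 1 or DM replicate 3 left 0 of the 8 called. Leaving out WT replicate 3 or DM replicate 1 left 1 (Ell2), and leaving out WT replicate 2 gave 4. Leaving out DM replicate 2 left 1 that was lower (Aff3). Over all 18766 tested genes these fits called 1185 without WT replicate 1, 3475 without WT replicate 2 and 1998 without WT replicate 3. They called 1860, 1119 and 1537 without DM replicates 1, 2 and 3, against 2611 with all 6 libraries.

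**Figure D2:**
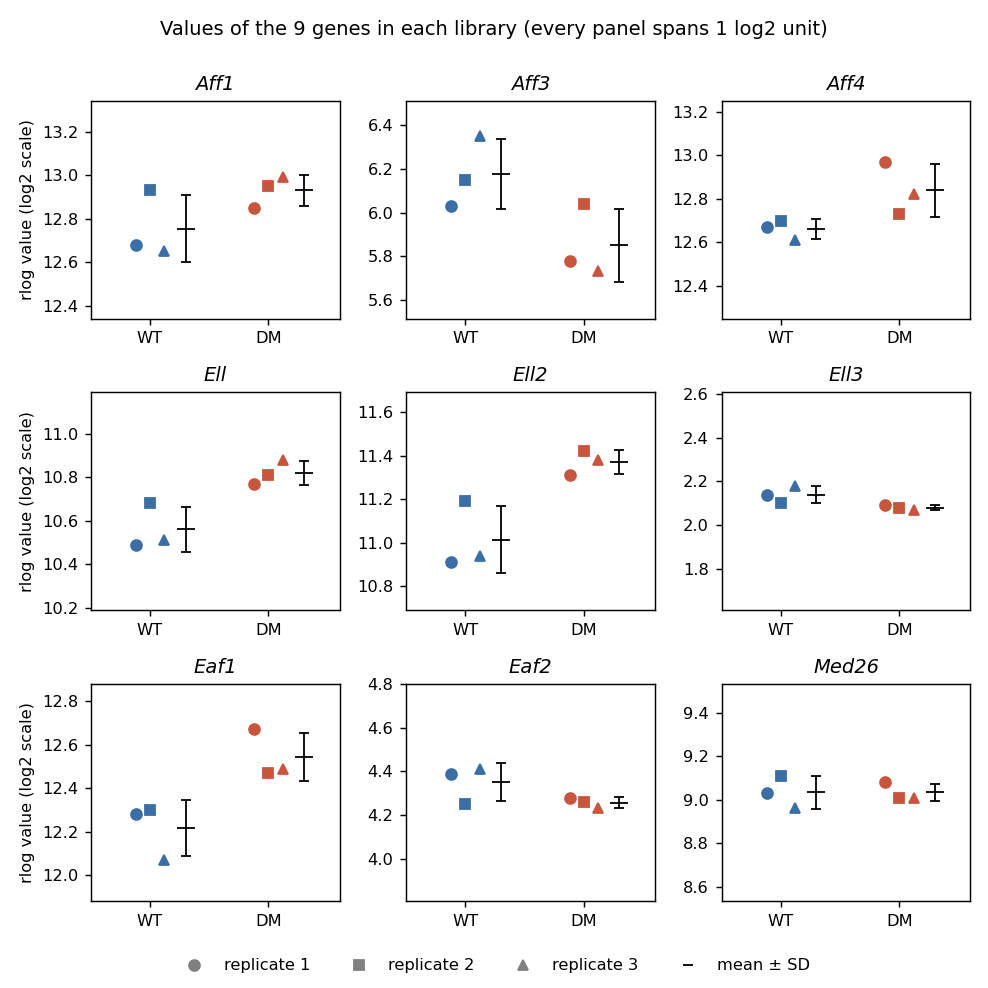
Rlog value (y axis, log2 scale) of each of the 9 genes in the 3 WT (blue) and 3 DM (red) libraries, with the mean and SD of each group in black; each panel spans 1 log2 unit around the gene's mean. All 3 DM points lie above all 3 WT points for Aff4, Ell, Ell2 and Eaf1.

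Among the scaffolds, none passed the test. Aff4 (ENSMUSG00000049470.13; chromosome 11, 53350833 to 53421830, plus strand), the scaffold of the complex at rapidly induced genes, had rlog values of 12.67, 12.7 and 12.61 in WT, against 12.97, 12.73 and 12.82 in DM. The groups did not overlap, but the lowest DM library lay just above the highest WT library. The difference of means was 0.18 (SE 0.0796, 95% interval -0.00 to 0.35, limma adjusted p 0.175). Aff1 (ENSMUSG00000029313.18; chromosome 5, 103692374 to 103855322, plus strand), known as AF4 and the most frequent MLL fusion partner in infant lymphoid leukaemia, had values of 12.68, 12.93 and 12.65 in WT, against 12.85, 12.95 and 12.99 in DM. WT replicate 2 lay inside the DM range. The difference was 0.18 (SE 0.0898, interval -0.02 to 0.38, adjusted p 0.208), and without WT replicate 2 it was 0.27 (adjusted p 0.0361), past the threshold. Quantile normalization brought the differences of Aff1 and Aff4 to 0.05 each.

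Aff3 (ENSMUSG00000037138.18; chromosome 1, 38177326 to 38664955, minus strand), first described as a nuclear protein of lymphoid cells, went the other way. Its rlog values were 6.03, 6.15 and 6.35 in WT, against 5.78, 6.04 and 5.73 in DM. DM replicate 2 lay just above the lowest WT library, and the other 2 DM libraries lay below all WT libraries. The difference was -0.32 (SE 0.105, interval -0.55 to -0.09), with an adjusted p of 0.0709 in limma, not past the threshold. It passed without DM replicate 2 (-0.42, adjusted p 0.0423) and with a minimum mean of 5 (-0.32, 0.0448). In the list of 12 lymphoid and plasma cell markers, 7 genes had means under 3. Of the 5 tested, Sdc1 was higher (0.27, limma adjusted p 0.0464) and Cd79b lower (-0.27, 0.0166). The median of the 5 was -0.1, and Cd79a (-0.07), Pax5 (-0.19) and Ebf1 (-0.10) were not past the test. Sdc1, the most abundant gene of the list, lost its call without any 1 library (adjusted p from 0.054 to 0.152), without the filter on the mean (0.0685), after centring (0.0866) and with a replicate block (0.0516), and Cd79b did so without DM replicate 1 (0.0515) or DM replicate 2 (0.0637). The summed level of that list ranged from 7.48 to 7.6 in WT and from 7.52 to 7.62 in DM (log2 scale). Its part in the values of Aff3 was not tested. In RNA from mixed cells, fewer cells of a type and less RNA per cell cannot be told apart.

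The ELL factors Ell and Ell2 were higher in DM. Ell2 (ENSMUSG00000001542.7; chromosome 13, 75706757 to 75772364, plus strand), whose best known role is in the processing of immunoglobulin transcripts in plasma cells, had rlog values of 10.91, 11.19 and 10.94 in WT, against 11.31, 11.42 and 11.38 in DM. Every DM library was above every WT library, with WT replicate 2 nearest to them. The difference of 0.36 (SE 0.0852, interval 0.17 to 0.55, limma adjusted p 0.0223) is 1.28-fold on the linear scale. It was 0.26 after quantile normalization, with the call kept (adjusted p 0.0255). The call was lost without WT replicate 1 (0.3, adjusted p 0.0996), DM replicate 2 (0.33, 0.09) or DM replicate 3 (0.35, 0.0773).

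Ell (ENSMUSG00000070002.7; chromosome 8, 70539457 to 70592858, plus strand), the founding member of the family and an MLL fusion partner in myeloid leukaemia, had values of 10.49, 10.68 and 10.51 in WT, against 10.77, 10.81 and 10.88 in DM. The groups did not overlap, and WT replicate 2 was again the highest WT library. The difference was 0.26 (SE 0.073, interval 0.1 to 0.42, limma adjusted p 0.0427), or 1.2-fold. It was 0.16 after quantile normalization (adjusted p 0.0861). Leaving out WT replicate 1 (0.23, adjusted p 0.163), WT replicate 3 (0.23, 0.0857), DM replicate 1 (0.28, 0.0772), DM replicate 2 (0.27, 0.121) or DM replicate 3 (0.23, 0.153) ended the call. Ell3 (ENSMUSG00000027246.12; chromosome 2, 121439010 to 121444278, minus strand), known for its expression in testis, had values of 2.14, 2.1 and 2.18 in WT, against 2.09, 2.08 and 2.07 in DM. These did not overlap, but the difference of -0.06 was read near the floor of the scale, and without the filter on the mean limma gave an adjusted p of 0.41.

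Of the factors that bind ELL, Eaf1 (ENSMUSG00000021890.6; chromosome 14, 31494399 to 31509858, plus strand) was higher in DM. Its rlog values were 12.28, 12.3 and 12.07 in WT, against 12.67, 12.47 and 12.49 in DM. The groups did not overlap, and WT replicate 3 was the lowest library while DM replicate 1 was the highest. The difference was 0.33 (SE 0.0881, interval 0.13 to 0.52, limma adjusted p 0.0356), or 1.25-fold, and 0.21 after quantile normalization (adjusted p 0.0668). The call ended without WT replicate 1 (0.36, adjusted p 0.0783), WT replicate 3 (0.25, 0.0797), DM replicate 1 (0.27, 0.123), DM replicate 2 (0.36, 0.0746) or DM replicate 3 (0.35, 0.0821). Mettl6 overlaps 2.5% of the exonic bases of Eaf1 on the opposite strand, and whether reads were counted by strand is not given in the sources used here. Eaf2 (ENSMUSG00000022838.14; chromosome 16, 36792884 to 36875003, minus strand) had values of 4.39, 4.25 and 4.41 in WT, against 4.28, 4.26 and 4.23 in DM. WT replicate 2 lay inside the DM range, and the difference was -0.09 (SE 0.0572, interval -0.22 to 0.04, adjusted p 0.306).

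Med26 (ENSMUSG00000045248.6; chromosome 8, 72494561 to 72548270, minus strand), the subunit that brings the complex to Mediator, had rlog values of 9.03, 9.11 and 8.96 in WT, against 9.08, 9.01 and 9.01 in DM. The 3 DM libraries lay within the WT range. The difference was -0.00 (SE 0.0685, limma adjusted p 0.993), with an interval from -0.15 to 0.15. Gm17435 overlaps 12.7% of its exonic bases on the opposite strand.

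**Figure D3:**
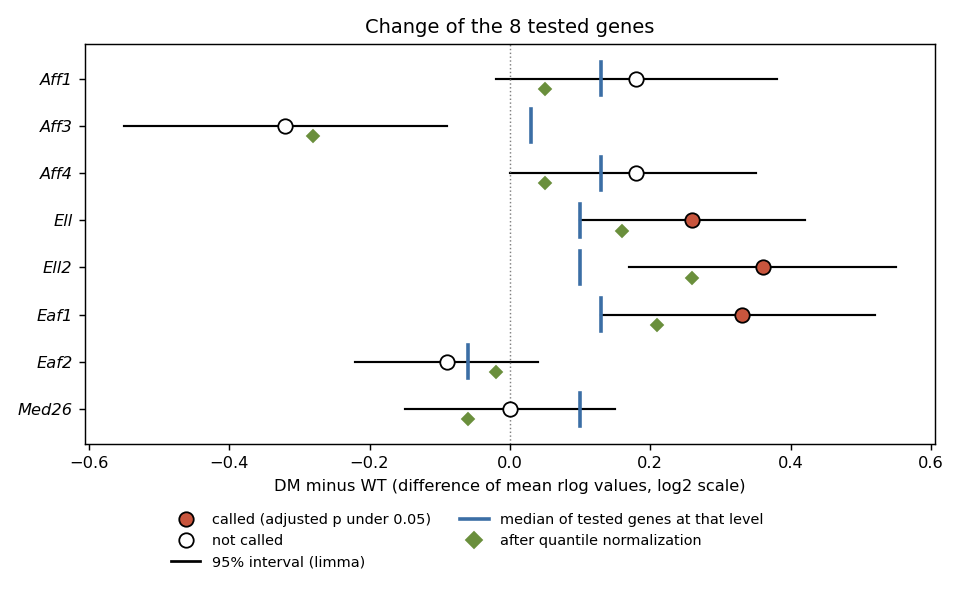
Difference of mean rlog values, DM minus WT (x axis, log2 scale), for the 8 tested genes, with limma's 95% interval; red points are called at an adjusted p under 0.05. Blue bars give the median change of all tested genes in the same range of mean level, and green diamonds the change after quantile normalization. Aff1, Aff4, Ell, Ell2 and Eaf1 lie above the blue bars, and Aff3, Eaf2 and Med26 below.

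Changes over the whole table differed by level. The median change was -0.06 and 0.177% were called higher among tested genes with means of 3 to 6. These values were 0.03 and 7.71% for means of 6 to 9, 0.1 and 16.2% for 9 to 12, and 0.13 and 24.4% for means of at least 12. After quantile normalization the 4 medians lay between -0.01 and 0.02. The abundant members sit in the upper 2 ranges. From 9 to 12, 2 of 3 members were called higher (Ell and Ell2, not Med26), and from 12 upward 1 of 3 (Eaf1, not Aff1 or Aff4). Aff1 and Aff4, at 0.18 each, stood beside a median of 0.13 for their range. Aff3, with a mean just above 6, and Eaf2, with a mean under 6, fall in the ranges where the medians were 0.03 and -0.06.

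The spread among WT libraries followed the same split by level. WT replicate 2 had the highest WT value for 6 members (Aff1, Aff4, Ell, Ell2, Eaf1 and Med26) and the lowest for Eaf2 and Ell3. WT replicate 3 had the highest for Aff3, Ell3 and Eaf2 and the lowest for Aff1, Aff4, Eaf1 and Med26. Over all tested genes, WT replicate 3 lay at a median of 0.08 above the mean of the 6 libraries for genes with means from 3 to 6 and at -0.13 for genes from 12 upward. The DM libraries lay between -0.04 and -0.03 in the low range and between 0.04 and 0.08 in the high range. The part of this shift in the members' values was not tested beyond the quantile normalization above.

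Whether related genes changed unequally was asked for 5 pairs, by the difference of their rlog values within each library and a two-sided exact permutation test over libraries. With 3 against 3 the smallest p is 0.1, so no pair could pass. Aff3 minus Aff1 was -6.65, -6.78 and -6.3 in WT, against -7.07, -6.91 and -7.26 in DM, without overlap. The difference between the groups was -0.5 (exact p 0.1, adjusted over the 5 pairs 0.167). Eaf2 minus Eaf1 was -7.89, -8.05 and -7.66 in WT, against -8.39, -8.21 and -8.27 in DM, a difference of -0.42 with the same p values. Ell3 minus Ell went from -8.35, -8.58 and -8.32 to -8.69, -8.73 and -8.81, a difference of -0.32, also with an exact p of 0.1 and an adjusted p of 0.167. In each of these 3 pairs the scarce gene was further below its abundant paralog in every DM library than in any WT library. Ell3 (-0.06) and Eaf2 (-0.09), both low on the rlog scale, changed little themselves, while Ell (0.26) and Eaf1 (0.33) were higher. The median change of all tested genes was -0.06 at means of 3 to 6 and 0.13 at means of at least 12. The part of that shift and of shrinkage in these pairs was not tested. After quantile normalization the difference was -0.33 for Aff3 minus Aff1 and -0.23 for Eaf2 minus Eaf1, and Ell3 was below the filter.

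The pairs of abundant paralogs gave smaller differences. Ell2 minus Ell was 0.42, 0.52 and 0.44 in WT, against 0.54, 0.62 and 0.51 in DM, a difference of 0.1 (exact permutation p 0.2, adjusted 0.25), and the groups overlapped. Aff4 minus Aff1 was -0.01, -0.22 and -0.04 in WT, against 0.11, -0.22 and -0.18 in DM, a difference of -0.01 (exact permutation p 1). WT replicate 2 and DM replicate 2 had the same value for this pair at 2 decimals, and DM replicate 1 alone had Aff4 above Aff1. The difference between Aff4 and Aff1 thus varied more between libraries of 1 group than between the group means.

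**Figure D4:**
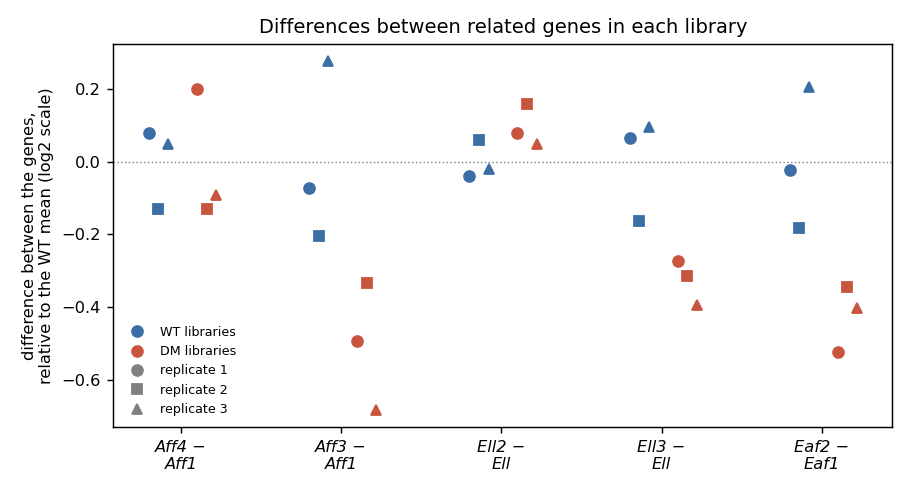
Difference between the rlog values of 2 related genes in each library (y axis, log2 scale, relative to the mean of the WT libraries), with blue for WT, red for DM and circles, squares and triangles for replicates 1 to 3. The DM points lie below all WT points for Aff3 minus Aff1, Ell3 minus Ell and Eaf2 minus Eaf1, and mix with them for the other 2 pairs.

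The partners of these proteins were read from lists of the complex and its surroundings. Of 6 other subunits or family genes of the complex (Cdk9, Ccnt1, Ccnt2, Mllt1, Mllt3 and Aff2), 1 was called, beside 13.9% of all tested genes, and the median change was 0.09. That gene was Mllt3, which is both supplied by the vector and targeted for deletion. Its rlog values were 12.87, 12.6 and 12.44 in WT, against 12.44, 12.03 and 11.99 in DM, a difference of -0.48 (limma adjusted p 0.0448), with WT replicate 3 equal to DM replicate 1 at 2 decimals. The call of Mllt3 was lost without WT replicate 1 (-0.36, adjusted p 0.152), WT replicate 2 (-0.5, 0.0606), DM replicate 2 (-0.42, 0.15) or DM replicate 3 (-0.4, 0.161). It was also lost without the filter on the mean (0.0651) or without the mean-variance trend (0.0542). In the other 7 of 13 alternatives the call was kept, among them quantile normalization (-0.59, limma adjusted p 0.0183) and a replicate block (-0.48, 0.000949). The part of vector and endogenous transcripts in these Mllt3 values was not tested. The groups differed in the substitutions and, in the main fit, in Mllt3 RNA. The part of each in the values of other genes cannot be told apart. Cdk9, the kinase of P-TEFb, had values of 11.42, 11.49 and 11.36 in WT, against 11.58, 11.58 and 11.63 in DM, a difference of 0.18 that was not past the test (adjusted p 0.113). Mllt1, the paralog that can take the place of MLLT3, differed by -0.02 (interval -0.17 to 0.13, adjusted p 0.867).

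Neither the little elongation complex, in which ELL acts at small nuclear RNA genes (Ice1, Ice2, Zc3h8), nor the proteins of the 7SK particle (Hexim1, Hexim2, Larp7, Mepce) had a called gene. Their median changes were 0.03 and -0.03. The SIAH ubiquitin ligases, of which SIAH1 marks ELL2 for degradation, had 0 of 3 genes called and a median of 0.11. Of 23 tested elongation and pausing factors outside the complex 0 were called (1 gene of the list, Tcea3, was below the filter), with a median of 0.02. At an unadjusted limma p under 0.05 there were 2 of these 23 and 0 in the 3 lists before them. Of all 18766 tested genes, 5415 had such a p. Calls among the 23 numbered 2 after quantile normalization, 2 with a replicate block, 1 after centring on the median and 1 without WT replicate 2. Of 32 Mediator subunits other than Med26, 3 were called, beside 13.9% of all tested genes, and the median was 0.06. Med15, a subunit of the tail that contacts activators, was higher (0.31, limma adjusted p 0.0273), as was Med10 of the middle module (0.29, 0.027), while Med21, also of the middle module, was lower (-0.43, 0.0128). Med10 and Med15 lost their calls without any 1 library other than WT replicate 2 (adjusted p from 0.0563 to 0.118 and from 0.0557 to 0.113) or without the filter on the mean (0.0755 and 0.058). Med21 did so without WT replicate 1 (-0.41, 0.0534) or DM replicate 2 (-0.39, 0.0545).

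**Figure D5:**
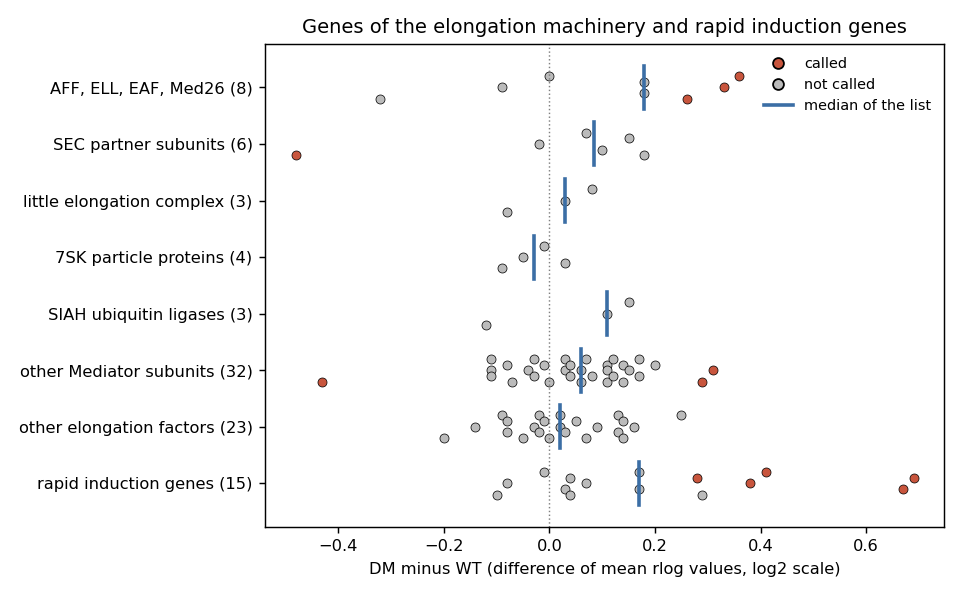
Change of each tested gene, DM minus WT (x axis, difference of mean rlog values, log2 scale), in the members and in 7 lists of related genes, with the number of tested genes in brackets; red points are called and blue bars are medians. The called members Ell, Ell2 and Eaf1 lie between 0.26 and 0.36, and the elongation factors outside the complex between -0.20 and 0.25.

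Rapidly induced genes are textbook targets of the complex. Of 15 immediate early and heat shock genes 5 were called, all 5 higher in DM, and the median change was 0.17, where 13.9% of all tested genes were called and 9.2% were higher. Dusp1, Atf3, Egr2 and Fos have means of 9 to 12 and Junb of at least 12, and among all genes the share called higher was 16.2% at means of 9 to 12 and 24.4% at means of at least 12. The list had 3 calls after quantile normalization or without the filter on the mean, and 2 without DM replicate 2 or without DM replicate 3. Egr2 (0.69, limma adjusted p 0.00377) and Atf3 (0.67, 0.00484), transcription factors induced by signalling and stress, kept their calls in all 13 alternatives. Dusp1, a phosphatase that switches off MAP kinases, changed by 0.41 (0.013), Fos by 0.38 (0.0484) and Junb by 0.28 (0.0421). For Dusp1 the call ended when DM replicate 2 (0.37, adjusted p 0.0596) or DM replicate 3 (0.39, 0.0537) was left out. Fos lost it without WT replicate 2 (0.41, 0.0512), WT replicate 3 (0.26, 0.0936), DM replicate 2 (0.32, 0.166) or DM replicate 3 (0.37, 0.143), without the filter on the mean (0.38, 0.0849), without the mean-variance trend (0.38, 0.0544), after quantile normalization (0.28, 0.0819) and after centring (0.35, 0.0543). Junb lost it without any 1 library other than WT replicate 2 (adjusted p from 0.0918 to 0.158), without the filter on the mean (0.28, 0.0907) and after quantile normalization (0.16, 0.111). The other immediate early genes were not past the test. Jun (0.29, limma adjusted p 0.0525), Egr1 (0.17, 0.419), Egr3 (0.17, 0.334) and Ier2 (0.04, 0.816) had higher means in DM. Fosb (-0.10, 0.706) and Myc (-0.08, 0.6) had lower means. The 4 heat shock genes Hspa1a, Hspa1b, Hsph1 and Dnajb1 had differences from -0.01 to 0.07, none past the test.

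Markers of myeloid cells moved with the groups. All 12 neutrophil markers were called lower in DM, where 4.71% of all tested genes were called lower and 9.2% higher. The marker lists were chosen with earlier results of these data known, so this contrast is a description and no test. Mpo (-4.23), Elane (-3.96) and Prtn3 (-3.37), granule genes of early neutrophil precursors, were in front. Smaller changes were found for genes of later stages such as Ngp (-1.62), Ltf (-1.28) and S100a9 (-1.27), and for the early granule gene Ctsg (-0.63). Their summed level ran from 18.47 to 18.9 in WT and from 16.84 to 17.75 in DM (log2 scale). Of 12 monocyte and macrophage markers 8 were called higher, among them Ctss (0.96) and Gpnmb (0.96). The 2 called lower were Ly6c2 (-1.13) and Ccr2 (-0.78, limma adjusted p 0.00975). The summed level of this list ran from 18.28 to 18.97 in WT and from 19.26 to 19.63 in DM. Every marker of both lists was well expressed, with mean rlog values of at least 7.08 in each group. The most abundant genes weigh most in such a sum, here led by Lyz2 (mean rlog value 17.90 in WT, 18.75 in DM). Within WT, replicate 2 had the highest summed level of the monocyte and macrophage list. As given above, it also had the highest Aff1, Aff4, Ell, Ell2, Eaf1 and Med26. Within DM, replicate 2 again had the highest sum of that list, but it had the lowest Aff4 and Eaf1 and was highest only for Aff3 and Ell2. The part of this change in cell types in the values of Ell, Ell2 and Eaf1 was not tested.

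For each called member, the 3 tested genes with the most similar profile were found by the Euclidean distance between the 6 rlog values, each gene centred on its mean. Nearest to Ell2 were Atg4c (distance 0.0341), Tgfbrap1 (0.0487) and Skil (0.0574), with differences between groups of 0.34, 0.34 and 0.4. Nearest to Ell were Myo9b (0.0401), Abraxas2 (0.0418) and Lig4 (0.0448), with differences of 0.27, 0.25 and 0.23, none of the 3 past the test (limma adjusted p 0.0534, 0.0566 and 0.0826). Nearest to Eaf1 were Itprid2 (0.0454), Lrrc8b (0.0618) and Id2 (0.0634), with differences of 0.35, 0.3 and 0.36, of which that of Lrrc8b was not past the test (limma adjusted p 0.0547). Among the members, Ell lay closest to Aff1 (0.131) and to Ell2 (0.162), and Eaf1 lay closest to Aff4 (0.226).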

How the data were processed

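RNA-seq values of 6 libraries (3 WT, 3 DM) were deposited as 1 table of log2 scale values that the authors had normalized and shrunken (rlog), as its name and values show. The submitters' processing notes name cutadapt 2.6, STAR 2.7.3, DESeq2 1.30.0 and mm10, without roles. The counting tool, annotation and use of strand are not given in the sources used here. The 142699 lines were merged into 55487 genes, and 55227 of these matched GENCODE M21 (GRCm38) by identifier, with or without the version, which gave coordinates and exonic lengths. That of Aff3 matched without its version.

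Groups were compared with limma 3.58.1 in R 4.3.3 (lmFit, eBayes with a mean-variance trend, no covariates) over 18766 genes whose mean was 3 or more, with Benjamini-Hochberg adjustment and a threshold of 0.05. Their median ranged over the libraries from 8.03 to 8.11. On simulated data with 200 of 18766 genes changed, this test called 96% of those changed by 1 and 76% of those changed by 0.5, and 11 unchanged genes. Noise was drawn independently for each gene, without the shifts by level described above. The members changed by 0.36 at most, a size that was not simulated, so these figures do not carry over to them. Differences between related genes were tested by exact permutation (scipy 1.17.1). Promoters came from RefSeq (GRCm38.p6).

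The members and the 14 gene lists were chosen with earlier results of these data known. They comprise 7 pathway lists and 7 lists of markers (stem and progenitor, lymphoid, megakaryocyte, erythroid, mast cell and basophil, monocyte and macrophage, neutrophil). Genes named are the members, up to 6 called genes per pathway list and 3 per marker list by size of change, Mllt3, and the 3 nearest profiles of each called member. Others were named after their values were seen. The alternatives were no filter, a minimum mean of 5, no trend, quantile normalization, centring on the median, protein-coding genes only, a replicate block, and each library left out in turn.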

Additional observations from a re-analysis of the deposited data

How the results depend on the processing

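Depth is unknown, and 3 libraries a group limit the precision. Of the 8 tested genes, 1 was called without the filter on the mean (Ell 0.26, Eaf1 0.33, adjusted p 0.123 and 0.0648) and 1 after quantile normalization (Ell 0.16, Eaf1 0.21), where their median change was 0.05. Aff3 passed the threshold with a minimum mean of 5 (-0.32). Leaving out each library in turn gave from 0 to 4 called members and changes from 0.13 to 0.27 (Aff1), -0.42 to -0.23 (Aff3), 0.11 to 0.23 (Aff4, 0.11 without DM replicate 1), 0.23 to 0.32 (Ell), 0.3 to 0.45 (Ell2), 0.25 to 0.37 (Eaf1), -0.14 to -0.06 (Eaf2, -0.14 without WT replicate 2) and -0.04 to 0.04 (Med26, 0.04 without WT replicate 2 and 0.01 without DM replicate 2 or DM replicate 3). The Aff4 minus Aff1 difference ran from -0.11 to 0.06 (0.06 when DM replicate 2 was left out, 0.03 for WT replicate 1 or DM replicate 3, 0.02 for WT replicate 3). Fewer samples were tested in these fits, and for the other settings the cause was not tested. Over all genes, from 1119 to 3475 were called in these fits. Of the 87 genes of the pathway lists 86 were tested and 9 were called, where 13.9% of all tested genes were called. There were 4 calls in these lists without the filter on the mean and from 2 to 10 with a library left out.

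The deviations of same-numbered WT and DM libraries from their group means had correlations of 0.49, 0.12 and 0.04 for replicates 1, 2 and 3. Those of unlike numbers ran from -0.34 to 0.12. WT replicates 1 and 2 correlated best with the DM library of the same number, and WT replicate 3 with DM replicate 2 (0.12). The labels do not say whether the numbers pair the samples, and these correlations cannot decide it. The main fit therefore used no block. With a replicate block 3742 genes were called in place of 2611, and 3 members as before. The limma adjusted p was then 0.00506 for Ell2, 0.00877 for Eaf1 and 0.0227 for Ell.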

Other observations

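The labels describe the cells as Kit positive at selection, and Kit had a mean rlog value of 14.39 in WT, against 14.6 in DM after culture. Mast cell and basophil markers were among the most abundant of the listed genes, led by Cpa3 at 17.74 and 17.98. Of the 9 genes of that list 1 was called, Hdc (-0.62, limma adjusted p 0.0457), and the median change was -0.02. Megakaryocyte markers had 2 of 6 genes called, Gp1ba (0.55, 0.017) and Vwf (0.54, 0.00667), with a median of 0.28, beside 13.9% of all tested genes called. After quantile normalization Gp1ba was not past the test (0.45, 0.0611). Of 7 tested erythroid markers 0 were called by limma, with a median of -0.2, and Hba-a1 was at the floor of the scale. Of 9 stem and progenitor markers, Procr (0.73, 0.00705) and Mecom (0.52, 0.0189) were higher and Myb (-0.65, 0.0127) and Flt3 (-0.3, 0.0494) lower, with a median of -0.01. Calls were lost without DM replicate 2 for Hdc (-0.43, 0.139), Gp1ba (0.53, 0.0625), Mecom (0.53, 0.0516) and Myb (-0.57, 0.0529), without DM replicate 3 for Myb (-0.6, 0.0526) and Hdc (-0.67, 0.0938), and without WT replicate 2 (-0.67, 0.0537) or WT replicate 3 (-0.45, 0.104) for Hdc. Flt3 was named after its values were seen.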
